A study of Mus musculus with 6 samples.

Results

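A set of 40 genes that build and run the mitotic machinery was followed in bone marrow stromal/stem cells of mice, Nrf2 knockout and WT, grown in culture. The genes were chosen by name for their function: cyclins with Cdk1, checkpoint and mitotic kinases, the chromosomal passenger complex, centromere and kinetochore proteins, kinesins, spindle and midzone factors, and condensin, with Mki67 and Top2a. Earlier results of these data were known when the choice was made. All 40 symbols were found, each in 1 row, among the 55401 genes of the deposited table, and all 40 passed the filter on low counts. The lowest count of any of them in any library was 34.

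In mitosis condensin compacts the chromosomes, kinesins and microtubule-binding proteins build the spindle, and kinetochores tie each centromere to it. Cyclin-dependent kinase 1 and the Aurora and Polo-like kinases time these steps, and a checkpoint holds back the anaphase-promoting complex until every chromosome is attached. Transcripts of these genes accumulate in the G2 and M phases in dividing cells and are low in resting ones, so they are widely read as markers of proliferation.

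The study compared 3 Nrf2 knockout libraries with 3 WT libraries. Nrf2 is the protein encoded by Nfe2l2, a transcription factor that switches on antioxidant genes. The knockout is named only by genotype in the labels, which give neither the allele nor the strain, age or number of animals. All 6 cultures grew in DMEM with 10% fetal bovine serum. The table's knockout columns carry a shared middle 1 that no source used here explains, so these libraries may be repeats of 1 source, and every p measures the spread between libraries, which may be technical in part.

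Column totals ran from 20069243 to 21235480 counts in knockout and from 18381114 to 21323839 counts in WT. The targeted gene, Nfe2l2, had 118, 149 and 118 counts in the knockout libraries, against 3591, 3082 and 3628 counts in the WT libraries. Levels below are in CPM, the count divided by library size after TMM scaling, which corrects that size for composition. The stromal identity on the label was only partly borne out. The 16 stromal markers summed to 115, 173 and 141 CPM in knockout libraries 1, 2 and 3, against 2339, 8323 and 11835 CPM in WT libraries 1, 2 and 3, and 14 of the 15 tested were lower in knockout, with Eng the exception, where 18.7% of all tested genes were lower. Of the defining ones, Pdgfra had at most 0.871 CPM in any knockout library and Thy1 at most 0.0502 CPM, and Ly6a was at 0 in 2 of them. The 12 macrophage markers, abundant throughout, summed to 18958, 19825 and 18174 CPM in knockout and 22490.1, 19001 and 17602 CPM in WT. Lyz2 alone made up 64.3% to 81.0% of that sum. It had 12438, 13146 and 11688 CPM in knockout, against 16854.5, 14878 and 14258 CPM in WT. Of the 12 markers 5 were called higher in knockout and 0 lower, where 14.1% of all tested genes were higher. In bulk RNA, fewer cells of a type and less RNA per cell cannot be told apart, and which cells made the mitotic transcripts was not measured.

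The promoters show what many of these genes have in common. In dividing mammalian cells mitotic promoters are known to be controlled through a CCAAT box, bound by NF-Y, and a cell cycle homology region (CHR), bound by the MuvB complex with MYBL2 and FOXM1. The 200 bases before the RefSeq start of 7 genes (GRCm38.p6, 5′ to 3′ on the gene's strand) are given to show this layout, chosen to cover different roles and to hold both motifs. Capitals mark a CHR (TTTGAA or TTCGAA or TTTAAA) or a CCAAT box (CCAAT), either of them on either strand, so a reverse match reads TTCAAA or ATTGG.
Mki67: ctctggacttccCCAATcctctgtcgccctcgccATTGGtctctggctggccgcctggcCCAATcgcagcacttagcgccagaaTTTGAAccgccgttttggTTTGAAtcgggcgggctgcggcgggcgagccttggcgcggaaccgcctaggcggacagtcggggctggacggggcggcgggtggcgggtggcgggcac
Top2a: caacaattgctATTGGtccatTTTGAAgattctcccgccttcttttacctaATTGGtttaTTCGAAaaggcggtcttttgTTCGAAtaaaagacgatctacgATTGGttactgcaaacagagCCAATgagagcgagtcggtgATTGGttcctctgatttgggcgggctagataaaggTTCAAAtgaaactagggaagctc
Ccnb2: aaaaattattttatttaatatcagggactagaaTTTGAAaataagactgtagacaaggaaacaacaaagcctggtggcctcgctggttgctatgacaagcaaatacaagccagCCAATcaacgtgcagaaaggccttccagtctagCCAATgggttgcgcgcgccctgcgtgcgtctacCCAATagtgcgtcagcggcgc
Cdk1: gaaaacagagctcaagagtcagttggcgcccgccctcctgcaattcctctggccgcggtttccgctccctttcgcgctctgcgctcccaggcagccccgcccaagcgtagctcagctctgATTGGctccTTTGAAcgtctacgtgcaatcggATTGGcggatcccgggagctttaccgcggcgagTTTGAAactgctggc
Cdc20: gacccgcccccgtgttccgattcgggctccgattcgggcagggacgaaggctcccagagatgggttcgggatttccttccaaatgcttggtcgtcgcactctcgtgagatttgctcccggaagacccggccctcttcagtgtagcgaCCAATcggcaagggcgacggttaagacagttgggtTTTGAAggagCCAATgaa
Kif11: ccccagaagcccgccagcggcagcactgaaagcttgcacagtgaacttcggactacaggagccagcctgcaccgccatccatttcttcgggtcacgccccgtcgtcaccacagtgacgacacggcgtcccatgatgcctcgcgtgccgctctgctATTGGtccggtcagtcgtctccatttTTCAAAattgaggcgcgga
Ncapg: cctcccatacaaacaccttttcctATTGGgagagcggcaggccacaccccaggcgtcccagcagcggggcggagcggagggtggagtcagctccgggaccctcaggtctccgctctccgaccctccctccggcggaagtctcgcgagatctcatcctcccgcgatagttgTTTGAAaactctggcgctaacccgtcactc
The Mki67 stretch lies at chr7:135716380-135716579 on the minus strand. The Top2a stretch lies at chr11:99024190-99024389 on the minus strand. The Ccnb2 stretch lies at chr9:70421555-70421754 on the minus strand. The Cdk1 stretch lies at chr10:69352913-69353112 on the minus strand. The Cdc20 stretch lies at chr4:118437344-118437543 on the minus strand. The Kif11 stretch lies at chr19:37376182-37376381 on the plus strand. The Ncapg stretch lies at chr5:45669725-45669924 on the plus strand. GENCODE M21 starts some transcripts earlier than RefSeq, so that the last 26 bases of the Cdk1 stretch, the last 9 bases of the Cdc20 stretch and the last 6 bases of the Ncapg stretch lie in an exon of the same gene.

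RefSeq promoter windows, 250 bases before to 50 after the start, were held for 34 of the 40 genes, as 35 windows, since Prc1 has a pair of starts. Those of Aurkb, Ccna2, Incenp, Kif20a, Smc4 and Tpx2 were not used here. A CHR was found in 32 of the 35 windows (91.4%), against 28.8% of all 32851 windows in the table. The form TTTGAA was in 28 (80.0%), against 17.9%. A CHR that began within 50 bases of the start was in 28 windows (80.0%), against 8.62%. Nuf2, Kif18a and Ncaph had none in this window, and neither did they hold a CCAAT box. A CCAAT box was in 27 windows (77.1%), against 37.4%, and all 27 also held a CHR, a combination found in 11.3% of all windows.

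Repeated CCAAT boxes were also frequent, with 2 or more in 16 windows (45.7%), against 11.7% of all windows. In 6 windows (17.1%) a pair of them began 31 to 34 bases apart, against 1.20% of all windows, a spacing chosen after the positions were seen. Top2a held 6 CCAAT boxes and 4 CHR matches, the most of both. An E2F site (TTTCGCGC or TTTGGCGC or TTTCCCGC or TTTGCCGC, on either strand), more typical of S phase genes, was in 5 windows (14.3%), against 2.26%. These were the windows of Cdk1, Kif15, Kif18a, Ncapd2 and Ncapg. The matches describe letters in a window, and binding was not measured.

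**Figure D1:**
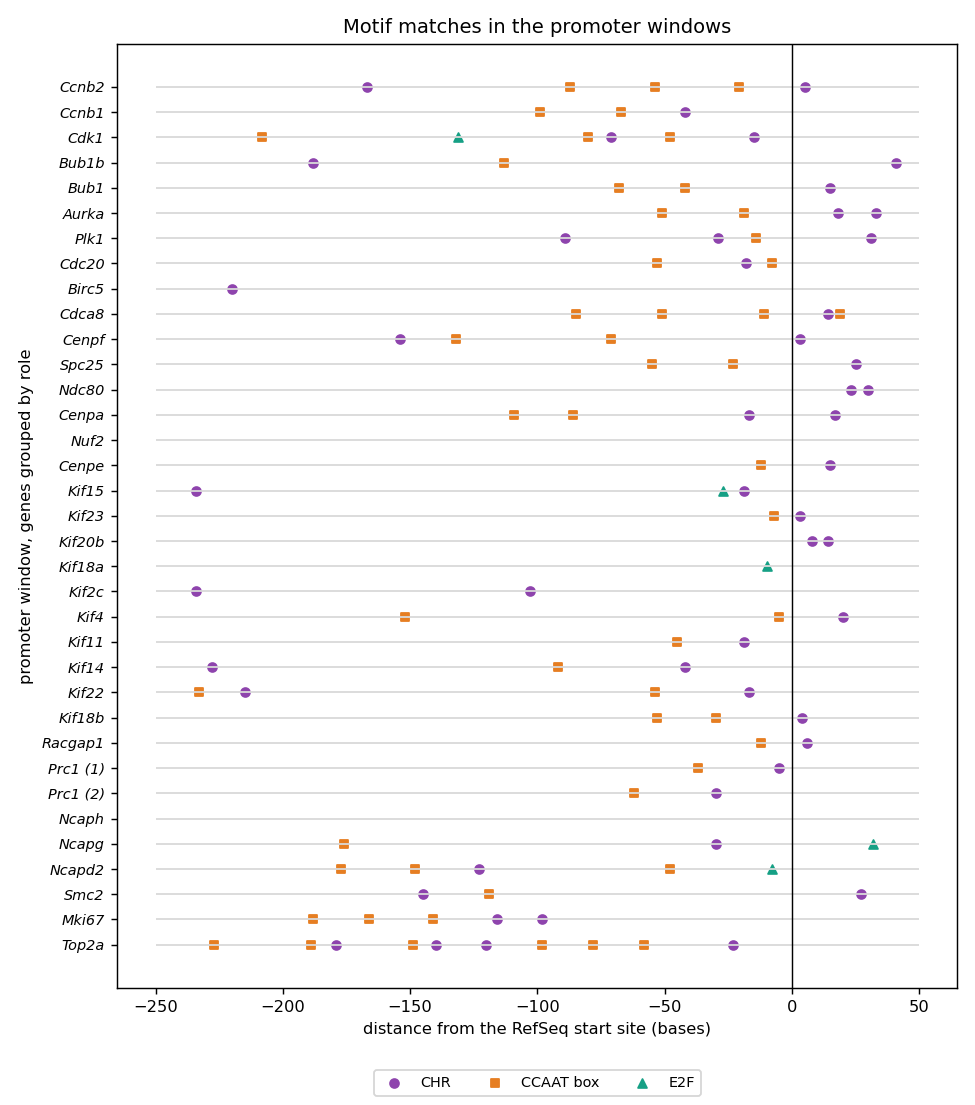
Positions of motif matches (circles CHR, squares CCAAT box, triangles E2F site) in the 35 RefSeq promoter windows, against the distance from the start in bases, with genes grouped by role. CHR matches gather close to the start (median position -19, and 28 windows hold one within 50 bases), and the median CCAAT box lies further upstream, at -67.

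Transcripts for the mitotic machinery were higher in Nrf2 knockout almost without exception under TMM scaling. Of the 40 genes, 38 rose and 0 fell (edgeR quasi-likelihood test on counts, Benjamini-Hochberg adjusted p under 0.05). Over all 13184 tested genes 14.1% were called higher and 18.7% lower. The median log2 fold change of the 40, knockout over WT, was 1.16, against -0.0053 for all tested genes, and the range was from 0.35 to 1.44. In 39 of 40 every knockout library lay above every WT library, a pattern seen in 24.9% of tested genes. The 2 genes that did not pass, Cdc20 and Kif20a, also had positive log2 fold changes. An exact permutation test of one gene over 3 against 3 libraries cannot go below p = 0.1, so the calls rest on the fit across all genes. Leaving out a single library ended the calls of 7 genes, Aurka, Plk1, Cenpe, Cenpf, Kif18b, Kif14 and Tpx2, each time without a knockout library or without WT library 2, with edgeR adjusted p of at most 0.1 and without a change of direction.

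**Figure D2:**
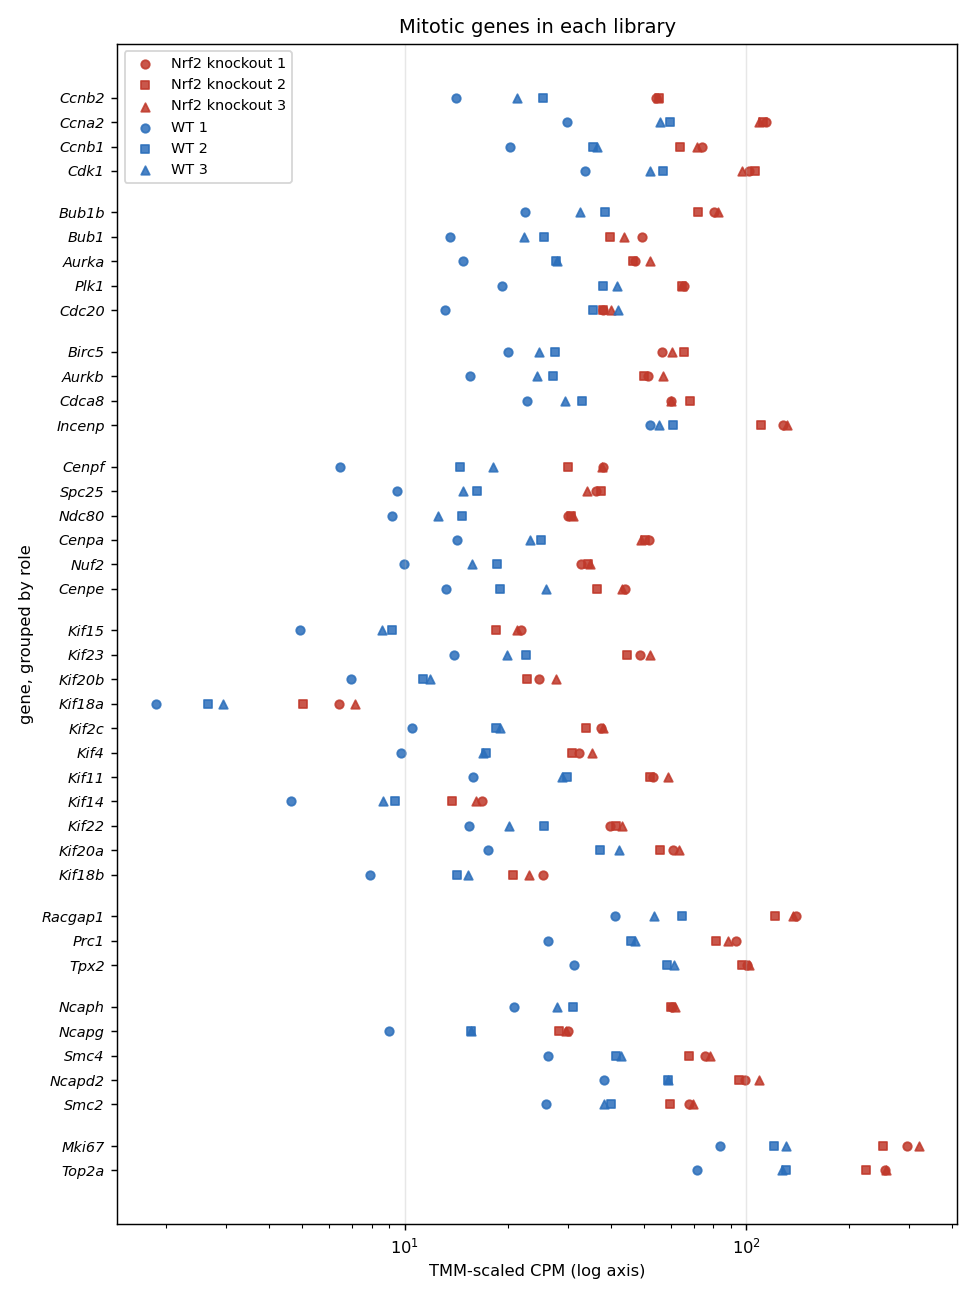
TMM-scaled CPM (log axis) of the 40 genes in each of the 3 Nrf2 knockout libraries (red) and 3 WT libraries (blue), with marker shape giving the library number. Red points lie to the right of all blue points for every gene except Cdc20, and WT library 1 is the lowest of the 6 throughout.

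Together the 40 genes took 0.269, 0.247 and 0.278% of all counts in knockout libraries 1, 2 and 3, against 0.0798, 0.144 and 0.147% in WT libraries 1, 2 and 3. After TMM scaling their sums were 2738, 2538 and 2794 CPM in knockout and 838, 1404 and 1374 CPM in WT. The knockout libraries were alike, and WT library 1 was well below the other WT libraries. WT library 1 was the lowest WT library for 40 of 40 genes, where 45.3% of all tested genes showed that order. WT libraries 2 and 3 were close, with a median ratio of 3 over 2 of 0.960. Among replicates of knockout the coefficient of variation over the 40 genes had a median of 6.94%, against 28.3% in WT; for all tested genes these medians were 7.64% and 13.9%.

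The size of the difference thus depended on the WT library. The mean of the knockout libraries was 2.35 to 5.46 times WT library 1 (median 3.34), 1.09 to 2.43 times WT library 2 (median 1.90) and 0.918 to 2.59 times WT library 3 (median 1.97). Without WT library 1 the median log2 fold change was 0.97 and 39 genes passed, with 23.1% of all tested genes then called higher. Stromal markers were also lowest in WT library 1 among the WT libraries, and macrophage markers were highest there. Their part in the spread of the mitotic genes was not tested.

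**Figure D3:**
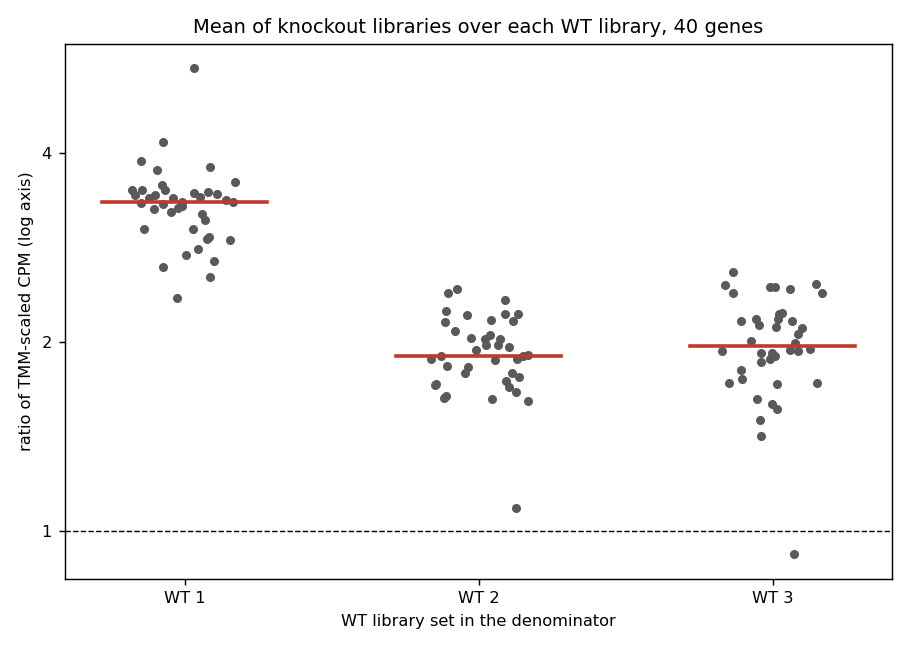
Ratio of the mean TMM-scaled CPM of the 3 knockout libraries to each WT library (log axis), with 1 point per gene and a red line at the median of the 40 genes. The medians are 3.34, 1.90 and 1.97 for WT libraries 1, 2 and 3, and a single gene, Cdc20, falls under 1, against WT library 3.

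The outcome also depended on how libraries were put on a common scale. Scaling each library to the summed macrophage list, of which Lyz2 alone made up 64.3% to 81.0%, left 36 of 40 genes higher, with 15.1% of all tested genes higher. Scaling to the geometric mean of the same list, so that each marker weighs equally, left 4: Birc5, Incenp, Ccnb2 and Racgap1, with adjusted p from 0.033 to 0.048 in edgeR and 12 genes at an unadjusted p under 0.05. That scaling moved the median of all tested genes to -0.52 and called 2.94% of them higher and 41.3% lower. The median of the 40 was then 0.60, and Cdc20 alone turned negative. A factor per library moves all genes nearly alike, so the lower log2 fold changes are a common shift. Such factors also change the spread among libraries of a genotype, and the part of that in the lost calls was not tested.

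Mki67, which encodes the Ki-67 protein that coats mitotic chromosomes, had 295, 251 and 321 CPM in the knockout libraries, against 83.4, 121 and 131 CPM in the WT libraries. Every knockout library was far above every WT library (log2 fold change 1.37, SE 0.18, edgeR adjusted p = 0.0024). Top2a, the topoisomerase that untangles sister DNA, had 255, 224 and 257 CPM in the knockout libraries, against 71.5, 130.2 and 127 CPM in the WT libraries (log2 fold change 1.16, SE 0.22, edgeR adjusted p = 0.0086). The groups did not overlap for either gene.

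All 4 genes of the cyclin and Cdk1 group rose, with log2 fold changes from 1.10 to 1.44. Ccnb2, a B-type cyclin, gave the largest change and the smallest p of the group. It had 54.2, 55.6 and 54.9 CPM in the knockout libraries, against 14.1, 25.4 and 21.2 CPM in the WT libraries, and the coefficient of variation among the knockout libraries was 1.26% (log2 fold change 1.44, SE 0.20, edgeR adjusted p = 0.0026). Per length it was also the most abundant of the 40 in knockout, at 35.2 ± 0.453 FPKM in knockout and 13.6 ± 4.27 FPKM in WT (SD, n = 3 each). Cdk1, the kinase that B-type cyclins activate to start mitosis, showed the smallest change, with 102, 106 and 97.3 CPM in the knockout libraries, against 33.6, 57.1 and 52.1 CPM in the WT libraries (log2 fold change 1.10, SE 0.19, edgeR adjusted p = 0.0055). Ccna2 and Ccnb1, an A-type and the other B-type cyclin, lay between them at 2.31-fold and 2.27-fold higher. Pseudogene rows named for Ccnb1 and Ccnb2 held 95 and 65 counts over all 6 libraries, and the treatment of reads that match more than 1 copy is not stated.

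In the checkpoint and mitotic kinase group 4 of 5 genes rose. Bub1b, which encodes the checkpoint protein BubR1, had 80.3, 72.1 and 82.5 CPM in the knockout libraries, against 22.4, 38.5 and 32.7 CPM in the WT libraries (log2 fold change 1.33, SE 0.19, edgeR adjusted p = 0.0029). Bub1, a checkpoint kinase of the kinetochore, and Aurka, the spindle pole kinase Aurora A, were 2.16-fold and 2.07-fold higher. Plk1, Polo-like kinase 1, was 1.97-fold higher with an edgeR adjusted p of 0.027, and its WT libraries ranged widely, at 19.2, 38.0 and 41.7 CPM. That call did not hold under 9 of the 18 alternatives, among them library totals (adjusted p = 0.055) and each fit that left out 1 knockout library.

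Cdc20 was the exception of the whole set. It encodes the activator of the anaphase-promoting complex that the checkpoint restrains, and spans bases 118432901 to 118437352 of chromosome 4, minus strand, in mm10 (ENSMUSG00000006398). Cdc20 had 37.9, 38.1 and 40.1 CPM in the knockout libraries, against 13.1, 35.5 and 42.1 CPM in the WT libraries. The knockout libraries were all alike, WT library 1 was far below them, and WT library 3 was above all of them (log2 fold change 0.35, SE 0.37, edgeR adjusted p = 0.50). Its ratio of WT library 3 to WT library 1 was 3.21, the highest of the 40, where the median was 1.64. Without WT library 1 the log2 fold change was 0.00 (adjusted p = 0.99). The promoter stretch shown above holds a CHR and a pair of CCAAT boxes, the second of them in its last bases, which GENCODE M21 places in a Cdc20 exon. Cdc20 overlaps Elovl1 on the opposite strand, a gene with 17295 counts over the 6 libraries, and without stated strand the reads of the shared stretch cannot be told apart.

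The chromosomal passenger complex, which corrects faulty attachments and then directs cytokinesis, rose in all 4 subunits. Incenp, its scaffold, gave the smallest p of all 40 genes. It had 128, 110.0 and 131 CPM in the knockout libraries, against 52.4, 60.8 and 55.4 CPM in the WT libraries, with the WT libraries close together (log2 fold change 1.13, SE 0.098, edgeR adjusted p = 0.00087). Birc5, the subunit also called survivin, had 56.4, 65.6 and 60.5 CPM in the knockout libraries, against 20.1, 27.6 and 24.6 CPM in the WT libraries (log2 fold change 1.34, SE 0.13, edgeR adjusted p = 0.0011). Aurkb, the kinase of the complex, was 2.36-fold higher, and Cdca8, the subunit borealin, was 2.21-fold higher. Per length the subunits stood at 27.96 FPKM for Incenp, 17.6 for Aurkb, 17.6 for Birc5 and 11.9 for Cdca8 in knockout, and at 13.2, 7.79, 7.24 and 5.62 FPKM in WT, so Incenp led in both genotypes (means, n = 3 each). The ratio of WT library 3 to WT library 1 was 1.06 for Incenp, 1.23 for Birc5, 1.29 for Cdca8 and 1.57 for Aurkb. The median over the 40 genes was 1.64, so WT library 1 stood least apart for Incenp, while Aurkb was near the median. Library 1 was still the lowest WT library for all 4 subunits.

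All 6 centromere and kinetochore genes rose, with a group median of 1.31. Cenpf, a large kinetochore protein of G2 and M phase, showed the widest gap to WT library 1. It had 38.0, 30.1 and 37.7 CPM in the knockout libraries, against 6.46, 14.5 and 18.2 CPM in the WT libraries (log2 fold change 1.43, SE 0.34, edgeR adjusted p = 0.018), so the WT values differed among themselves by 2.81 times. Ndc80, the microtubule-binding subunit of the NDC80 complex, had 30.1, 30.7 and 31.0 CPM in the knockout libraries, against 9.15, 14.7 and 12.5 CPM in the WT libraries (log2 fold change 1.34, SE 0.17, edgeR adjusted p = 0.002). Its partners Spc25 and Nuf2 were 2.66-fold and 2.30-fold higher. Per length, Ndc80 and Nuf2 stood at 4.63 and 5.27 FPKM in knockout and 1.91 and 2.39 FPKM in WT, while Spc25 was at 11.1 FPKM in knockout and 4.34 FPKM in WT. Cenpa, the histone H3 variant of centromeres, was 2.42-fold higher. Cenpe, a kinetochore motor, had the smallest change of the group, with 44.1, 36.6 and 43.2 CPM in the knockout libraries, against 13.2, 19.0 and 26.0 CPM in the WT libraries (log2 fold change 1.09, SE 0.23, edgeR adjusted p = 0.012).

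Of 11 kinesin genes, 10 rose, and their log2 fold changes ran from 0.880 to 1.44. Kif15, a motor that helps to keep the spindle bipolar, had the largest change of all 40 genes, level with Ccnb2 at 2 decimals. Kif15 had 21.8, 18.5 and 21.3 CPM in the knockout libraries, against 4.93, 9.17 and 8.58 CPM in the WT libraries (log2 fold change 1.44, SE 0.23, edgeR adjusted p = 0.0043). Kif23, the motor subunit of the centralspindlin complex of the cell midzone, had 48.9, 44.7 and 52.4 CPM in the knockout libraries, against 13.9, 22.6 and 19.9 CPM in the WT libraries (log2 fold change 1.37, SE 0.18, edgeR adjusted p = 0.0022). Kif11, the Eg5 motor that pushes spindle poles apart, was 2.20-fold higher. The chromosome-borne motors Kif4 and Kif22 were 2.23-fold and 2.04-fold higher, and Kif2c, which takes microtubules apart at centromeres, was 2.28-fold higher. Kif20b and Kif14, motors of cytokinesis, were 2.49-fold and 2.06-fold higher. Kif18a, which shortens kinetochore microtubules, was the least abundant of the 40 per length, at 0.620 ± 0.111 FPKM in knockout and 0.260 ± 0.0721 FPKM in WT (SD, n = 3 each), and was 2.48-fold higher.

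Kif20a, a motor needed at the midzone for cytokinesis, was the kinesin that did not pass. It had 60.9, 55.8 and 63.3 CPM in the knockout libraries, against 17.5, 37.2 and 42.3 CPM in the WT libraries, without overlap of the genotypes (log2 fold change 0.89, SE 0.29, edgeR adjusted p = 0.056). It passed under 6 of the 18 alternatives, among them DESeq2 (adjusted p = 0.0098) and the fit without WT library 1 (adjusted p = 0.00043). Kif20a also overlaps an expressed gene on the opposite strand, Cdc23, with 4606 counts over the 6 libraries. Kif18b, a partner of Kif2c at microtubule ends, had the smallest change of the group, with 25.3, 20.7 and 23.03 CPM in the knockout libraries, against 7.89, 14.2 and 15.3 CPM in the WT libraries (log2 fold change 0.88, SE 0.24, edgeR adjusted p = 0.03). Its call did not hold under 10 of 17 alternatives in which it was tested, library totals and the fits without any 1 knockout library among them.

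Racgap1, the other subunit of centralspindlin, had 139.7, 122 and 137 CPM in the knockout libraries, against 41.2, 64.6 and 53.6 CPM in the WT libraries (log2 fold change 1.32, SE 0.16, edgeR adjusted p = 0.0019). Prc1, which bundles the midzone microtubules, was 2.20-fold higher. Tpx2, an activator of Aurora A on the spindle, rose least of the 3 spindle assembly and midzone genes, with 100.3, 96.7 and 102 CPM in the knockout libraries, against 31.2, 58.7 and 61.4 CPM in the WT libraries (log2 fold change 0.98, SE 0.24, edgeR adjusted p = 0.019). Both subunits of centralspindlin thus rose by like amounts, 2.58-fold for Kif23 and 2.50-fold for Racgap1, and the difference between them was not tested.

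All 5 tested subunits of the condensin I ring rose, and their group median of 1.00 was the lowest of the role groups, an order given without a test. Ncaph, the kleisin that closes the ring, had 60.5, 60.2 and 61.7 CPM in the knockout libraries, against 20.9, 31.0 and 27.9 CPM in the WT libraries (log2 fold change 1.19, SE 0.14, edgeR adjusted p = 0.0018). Ncapg and Ncapd2, its companion subunits, were 2.18-fold and 1.94-fold higher. The ATPases Smc2 and Smc4, which condensin I shares with condensin II, were 1.89-fold and 2.00-fold higher, and Smc2 had 68.0, 59.7 and 69.9 CPM in the knockout libraries, against 25.9, 40.1 and 38.2 CPM in the WT libraries (log2 fold change 0.92, SE 0.17, edgeR adjusted p = 0.0071). Per length the knockout levels were 15.8 FPKM for Ncapd2, 14.0 for Smc4, 13.9 for Ncaph, 11.8 for Smc2 and 4.07 for Ncapg, and the WT levels were 8.53, 7.28, 6.32, 6.50 and 1.94 FPKM. Ncapg was the lowest subunit in both genotypes (means, n = 3 each).

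**Figure D4:**
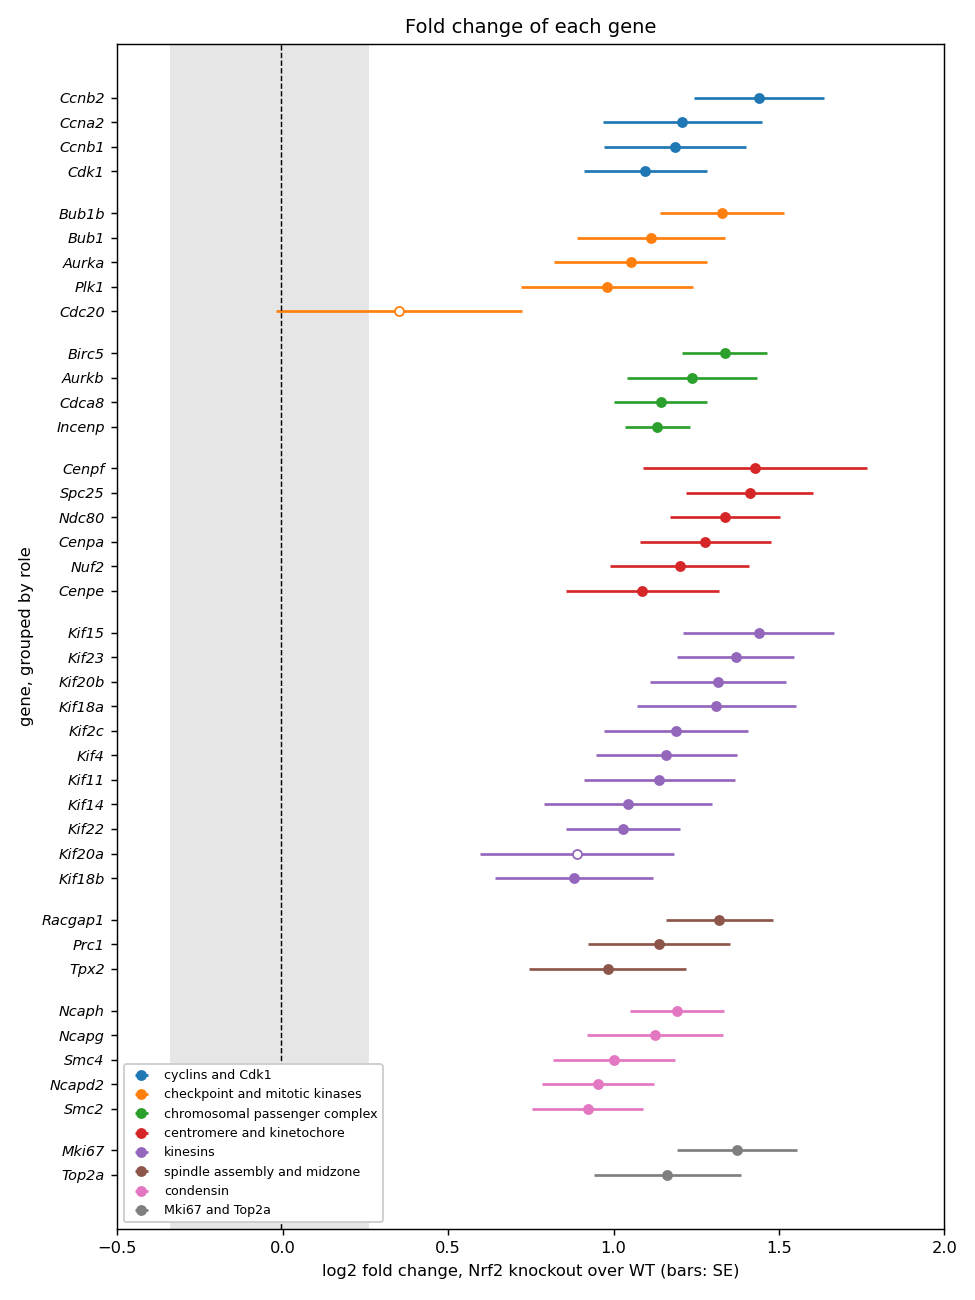
Log2 fold change of each gene, Nrf2 knockout over WT, with bars of 1 SE on either side from edgeR, coloured by role; open circles did not pass an adjusted p of 0.05. The dashed line is the median and the grey band the middle 50% of all tested genes, and all 40 genes lie above that band.

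Other genes of mitosis were taken from lists by function, some of whose members have other roles too, and their counts are set beside 14.1% higher and 18.7% lower over all tested genes, without a test between lists. In the list of other kinetochore, checkpoint and shugoshin genes 28 of 35 rose and 0 fell, with a median log2 fold change of 1.05. Spdl1, which brings dynein to kinetochores, had 49.6, 52.9 and 55.3 CPM in the knockout libraries, against 15.6, 19.6 and 18.2 CPM in the WT libraries (log2 fold change 1.56, SE 0.11, edgeR adjusted p = 0.00039). Mad2l1, the checkpoint protein MAD2, and Kntc1, a subunit of the RZZ complex, were 2.50-fold and 2.42-fold higher. The 7 without a call were Mis12, Zwint, Zw10, Bub3, Cenpp, Cenpt and Cenpw, with log2 fold changes from -0.36 for Zwint to 0.82 for Cenpp.

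Of other spindle and cytokinesis genes 23 of 34 rose and 3 fell, with a median of 1.04. Nusap1, which bundles spindle microtubules, Knstrn, a spindle-associated protein, and Kifc1, a minus-end kinesin, were 2.70-fold, 2.31-fold and 2.11-fold higher. Cohesin, condensin II and separase genes gave a median of 0.29, and 7 of 16 rose. Espl1, the protease separase, was 1.97-fold higher, while Smc1a of cohesin and Ncaph2 of condensin II were 1.42-fold and 1.35-fold higher; under the common shift of the geometric-mean macrophage scaling the values of these last 2 were slightly below 0. Condensin II's own subunits thus had log2 fold changes of 0.61 for Ncapd3, 0.27 for Ncapg2 (no call) and 0.44 for Ncaph2, against 0.95 for Ncapd2, 1.13 for Ncapg and 1.19 for Ncaph of condensin I.

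The list of the anaphase-promoting complex, which also holds genes that work with it, showed smaller values. In it 9 of 18 rose, with a median of 0.19. Fzr1, Fbxo5, Ube2c and Ube2s, which are not core subunits, were among those that rose. The subunits that rose were Anapc2, Anapc5, Anapc10, Anapc11 and Anapc15, and the others had no call. The mitotic ubiquitin-conjugating enzyme Ube2c was 2.39-fold higher and the inhibitor Fbxo5 was 1.91-fold higher. The core subunit Anapc5 was 1.35-fold higher, and slightly below 0 under the same shift. Fzr1, the activator that takes over from Cdc20 after mitosis, had a log2 fold change of 0.38 (adjusted p = 0.015). That shift moved the median of all tested genes to -0.52, so small positive values in this list, Fzr1 included, depend on the scaling.

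Among regulators of mitotic entry and of the mitotic promoters 14 of 33 rose and 2 fell, with a median of 0.39. Cdc25b, a phosphatase that activates Cdk1, was 2.83-fold higher, and Pkmyt1, a kinase that inhibits it, was 2.27-fold higher. Of the factors known to act at the CHR, Foxm1 had a log2 fold change of 1.06 (adjusted p = 0.0084) and Mybl2 of 0.50 (adjusted p = 0.087). Of the MuvB subunits, Lin9 had 0.97 (adjusted p = 0.0018), Lin54 0.53 (adjusted p = 0.029) and Rbbp4 0.35 (adjusted p = 0.01). Lin37 at 0.41 (adjusted p = 0.082) and Lin52 at 0.39 (adjusted p = 0.11) did not pass. The NF-Y subunits Nfya, Nfyb and Nfyc did not pass, with adjusted p of 0.31, 0.99 and 0.28. Rbl1, which encodes the repressor p107, was 1.74-fold higher. All adjusted p in these lists are from the same edgeR fit, under TMM scaling. The smaller positive values here, such as those of Rbbp4 and Lin54, depend on the scaling in the same way.

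Most genes of S phase, the stage in which DNA is copied, were also higher. In that list 30 of 35 rose and 0 fell, with a median of 0.67, against 1.16 for the mitotic set, a difference given without a test. Mcm10 and Tk1, a replication factor and thymidine kinase, were 2.41-fold and 2.39-fold higher, and Mcm5, of the replicative helicase, was 1.78-fold higher. The summed mitotic set over the summed S phase list is a ratio within each library and does not depend on scaling. It was 0.864, 0.822 and 0.866 in knockout libraries 1, 2 and 3, against 0.426, 0.649 and 0.773 in WT libraries 1, 2 and 3. The knockout values were all above the WT values, narrowly above WT library 3. Pcna, the largest term of the S phase sum, had 750, 755 and 742 CPM in knockout, against 649, 544 and 357 CPM in WT. The part of Pcna in the ratio was not tested.

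**Figure D5:**
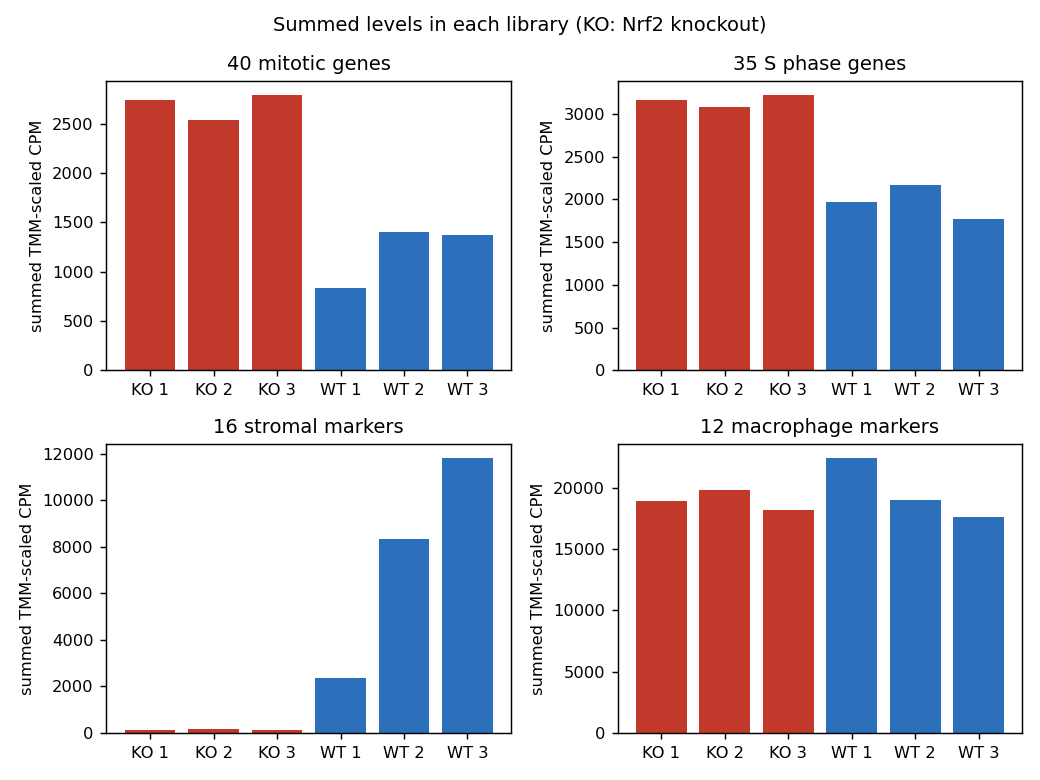
Summed TMM-scaled CPM of the 40 mitotic genes, the 35 S phase genes, the 16 stromal markers and the 12 macrophage markers in each library, knockout (red) and WT (blue); bars are single libraries and have no error. The mitotic sum is at least 2538 CPM in the knockout libraries and at most 1404 CPM in WT, while the stromal sum is lower in every knockout library than in any WT library. Lyz2 makes up 64.3% to 81.0% of the macrophage sum.

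Markers of other blood cells were measured beside these results. All 7 neutrophil markers rose, where 14.1% of all tested genes were higher. Their sum was 282, 325 and 285 CPM in knockout, against 42.2, 18.8 and 102 CPM in WT. Elane, the elastase that neutrophil precursors make, had 9.23, 9.97 and 8.63 CPM in the knockout libraries, against 1.20, 0.0530 and 1.71 CPM in the WT libraries. Macrophage markers rose in 5 of 12 cases and fell in 0, beside the same 14.1%. Mrc1, the mannose receptor, rose most, at 5.60-fold, and Fcgr1 came next at 2.03-fold. Lyz2, Itgam and Mertk were lower without a call, at 0.81-fold, 0.83-fold and 0.79-fold. Lymphocyte and erythroid markers were near 0, with none passing the filter on low counts. The part of these cells in the mitotic signal was not tested.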

How the data were processed

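RNA was sequenced from 3 Nrf2 knockout and 3 WT libraries prepared from total RNA with an mRNA kit, per the labels' protocols. The deposited table holds raw counts per gene and the authors' FPKM, which equal count over exonic length and column total within 0.005. The tools HTSeq 0.6.1, HISAT2 2.0.1 and DESeq2 and the build mm10 are listed, without role or order, in the submitters' processing notes. Strand, multi-mapping and the annotation release are not stated; 8 of the 40 genes overlap an opposite-strand gene with at least 100 counts. Coordinates of all 40 matched GENCODE M21.

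The 40 genes, the lists and the tests were chosen with earlier results of these data known. Counts were tested with edgeR 4.0.16 in R 4.3.3 (quasi-likelihood, filterByExpr with minimum count 10, TMM, genotype only, Benjamini-Hochberg over all 13184 tested genes). Standard errors were the size of the log2 fold change divided by the root of edgeR's F. The script was tested on simulated data. Genes shown in every library are, per role group, those with the smallest p, the largest or smallest change, or no call. From each other list up to 3 with the smallest p are named, and any further gene was picked with its value known. Alternatives used DESeq2 1.42.0, limma 3.58.1 on log2(FPKM + 1), which understates changes of low genes, and other scalings and filters. Replicates differed by more than sampling noise, for which chi-square per degree of freedom is about 1. It was 3.24 to 8.26 between knockout libraries and 33.2 to 162 between WT libraries. Depth was 18381114 to 21323839 counts a library.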

Additional observations from a re-analysis of the deposited data

How the results depend on the processing

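Leaving aside the geometric-mean macrophage scaling, in fits that keep all 6 libraries 36 to 39 of 40 genes were called higher with edgeR at an adjusted p of 0.05 or DESeq2, 26 of the 28 left at a mean FPKM of at least 5, and 35 of 39 with limma at either pseudocount; at an adjusted p of 0.01 edgeR called 29. In these fits 5.57% to 15.4% of all tested genes were called higher. None of the 40 genes was called lower in any fit. Leaving out 1 library gave 31 to 39 genes called higher, with medians of 0.97 to 1.30 and no sign change; the lowest, 31, 32, 34 and 34, were without knockout library 3, 1 or 2 and without WT library 2, in which 6.37% to 7.65% of all genes were called higher. Over all tested genes the number called was 4333 as reported, 2019 at a mean FPKM of at least 5, 2123 at an adjusted p of 0.01, and 2491 to 6901 without 1 library. Scaling to the geometric mean of the macrophage list, chosen after seeing the data, gave 4 genes called higher and a median of 0.60. Under it the log2 fold changes reversed to -0.25 for Cdc20, -0.019 for Smc1a, -0.077 for Ncaph2 and -0.091 for Anapc5; these genes moved with the common shift of all genes, whose median was -0.52 under this scaling. It made 6.66% of all calls higher ones, against 43.0% as reported, and scaling to the macrophage sum 52.9%. Replicate numbers do not mark a known shared source. Deviations of same-numbered libraries correlated at 0.17, 0.146 and 0.0867, every library best with its own number. With only 3 libraries a genotype such a match can arise without a shared source, so it does not show one. With the replicate block 39 genes were called higher, with a median of 1.20, and 4174 of all genes were called. With 3 libraries a genotype and the spread of their WT libraries, the changes of Kif20a, Kif18b and Plk1 cannot be settled. The calls of Aurka, Cenpe, Cenpf, Kif14 and Tpx2 also ended in at least 1 fit that left out a library.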

Other observations

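Inhibitors of cyclin-dependent kinases, which hold cells out of the cycle, were not uniformly low where mitotic genes were high. Of 8 tested, 3 were higher in Nrf2 knockout, 3 were lower and 2 had no call in edgeR, where 14.1% of all tested genes were higher and 18.7% lower. Cdkn2c (p18) had 70.8, 71.8 and 68.0 CPM in the knockout libraries, against 19.6, 29.9 and 24.2 CPM in the WT libraries (log2 fold change 1.52, SE 0.15, edgeR adjusted p = 0.0011), and Cdkn2d (p19) had 53.6, 54.4 and 48.3 CPM in the knockout libraries, against 22.4, 29.8 and 20.6 CPM in the WT libraries, both without overlap. Cdkn3, a phosphatase that acts on cyclin-dependent kinases, was 2.45-fold higher. Cdkn2b (p15) had 0.446, 0.532 and 0.251 CPM in the knockout libraries, against 4.27, 13.7 and 17.6 CPM in the WT libraries (log2 fold change -4.83, SE 0.62, edgeR adjusted p = 0.0022), and Cdkn2a, whose locus lies beside it, averaged 0.147 CPM in knockout and 6.57 CPM in WT. The WT libraries ranked for Cdkn2b as they did for stromal markers, whose part in this was not tested. Cdkn1a (p21), the main target of p53 among them, had 158, 162 and 156 CPM in the knockout libraries, against 223, 257 and 268 CPM in the WT libraries (log2 fold change -0.65, SE 0.091, edgeR adjusted p = 0.0028).

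Among the genes of the other spindle list, 3 went against the rest and were lower in knockout, chosen for mention after their values were seen. Psrc1, a microtubule-associated protein, had 5.51, 5.32 and 4.87 CPM in the knockout libraries, against 6.08, 18.8 and 22.9 CPM in the WT libraries (log2 fold change -1.61, SE 0.44, edgeR adjusted p = 0.032). Kif21a and Kif1b, kinesins known for transport in neurons rather than for mitosis, averaged 0.0502 and 91.3 CPM in knockout and 1.85 and 113 CPM in WT.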
